A study of Brassica napus with 6 samples.

Results

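The transcripts described here are those of the mitochondrial and chloroplast genomes, as read by the block of probe sets numbered 244901 to 245050 on the Arabidopsis ATH1 array. The members were taken by these numbers alone, which gave 150 of 22746 probe sets, control sets left out. The arrays were hybridised with root RNA of Brassica napus cultivar Nourin No.16 (oilseed rape), a relative of Arabidopsis, so each gene name is that of the Arabidopsis gene the probes were made for. Plants grew in hydroponics and were kept for 2 days with 10 µM cadmium chloride, either alone (3 arrays) or together with reduced glutathione (GSH, 3 arrays), the tripeptide thiol from which plants make cadmium-binding phytochelatins. Both groups carried cadmium, so every difference below is cadmium plus GSH minus cadmium only. According to the labels, GSH was at 100 mM, a dose that could not be checked here, the samples were biological replicates, and the plants were 4 weeks past germination, or younger by the growth protocol. Each container held several plants, and the labels do not say how plants were combined into a sample, so p-values measure the spread between these samples.

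Plant mitochondria and chloroplasts keep small genomes that encode part of their own electron transport chains and part of the ribosomes that make those proteins. The mitochondrial genome encodes core subunits of the respiratory complexes and proteins that attach haem to cytochrome c. The chloroplast genome encodes core subunits of both photosystems, the cytochrome b6f complex, the ATP synthase, the NDH complex and the large subunit of Rubisco, and also ribosomal proteins and an RNA polymerase of bacterial type. Roots hold non-green plastids that carry this same genome and transcribe it at a lower level than leaf chloroplasts do. The labelling kit copies RNA from its poly(A) tail. Organelle transcripts mostly lack stable tails, and in chloroplasts an added tail marks RNA for breakdown, so the signal need not follow the amount of transcript.

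Of the 150 probe sets, 104 carried 1 gene symbol in the platform annotation, 1 carried 2 different symbols and 45 carried none. The 104 include 8 sets with the same symbol entered for each copy of a gene that the chloroplast genome holds in its inverted repeat or in separate parts. By symbol, 77 sets read chloroplast genes and 12 read mitochondrial genes. The set with 2 symbols, 244944_s_at, lists ribosomal protein genes rps3 and rpl16 with gene numbers of the mitochondrial genome and is counted as the 13th mitochondrial set. The other 15 symbols belonged to nuclear loci of Arabidopsis chromosome 2. Of these, 5 were AT2G07 loci, from a region of that chromosome that holds a nuclear copy of mitochondrial DNA. Whether their sets read the nuclear or the mitochondrial copy cannot be told here. The other 10, which go against the label of the block, lay in a run of 18 sets from 245029 to 245046. The remaining 8 sets of that run had no symbol.

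Most of the block held no information on the treatment. A probe set is called varying here where its log2 signal ranged over the 6 arrays by more than 0.01, and constant otherwise. Of the 150 members 27 varied (18%), against 2428 of the 22746 probe sets (10.7%). The varying members just inside that limit ranged by 0.048 (244981_at) and 0.077 (ndhK), and the constant member just outside it, clpP, by 0.0018. Among the 123 constant members, 120 ranged by less than 0.000001. A constant value cannot show a response in either direction.

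**Figure D1:**
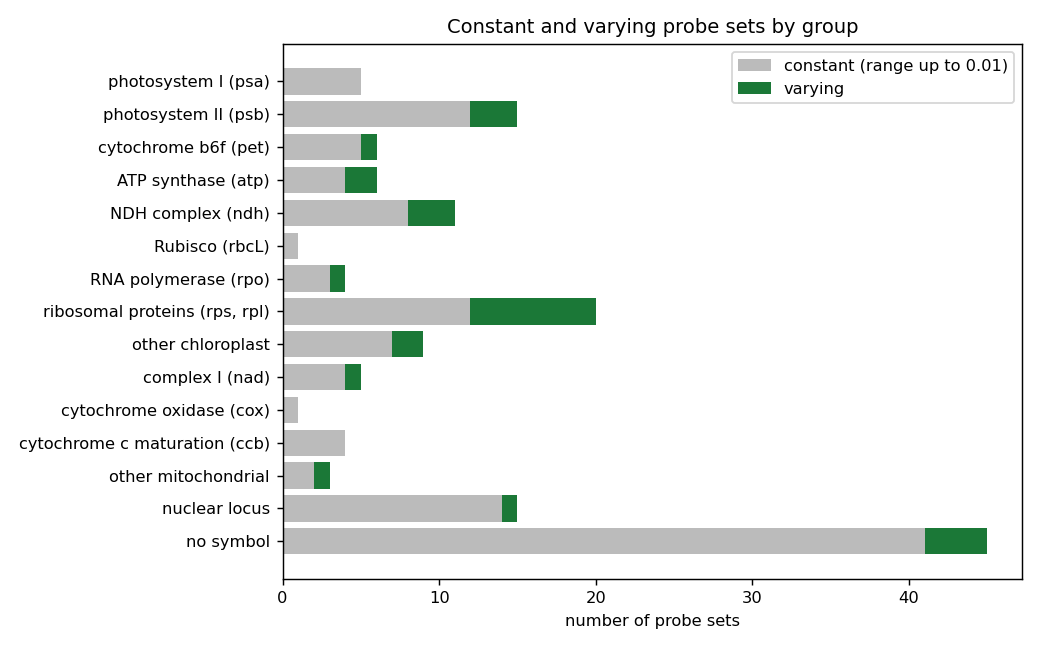
Number of constant (grey) and varying (green) probe sets in each group of the organelle block, groups being set by gene symbol. Varying sets were 20 of 77 with a chloroplast symbol and 2 of 13 mitochondrial sets, and none of the 5 sets of photosystem I varied.

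The share that varied, 10.7% over all 22746 probe sets, is given here by gene group, and differences between groups were not tested. It was 8 of 20 for chloroplast ribosomal proteins, 3 of 15 for photosystem II, 3 of 11 for the NDH complex, 2 of 6 for the ATP synthase, 1 of 6 for the cytochrome b6f complex, 1 of 4 for the RNA polymerase and 2 of 9 for other chloroplast genes. The set for rbcL, the large subunit of Rubisco, was constant at 6.46, and the 5 sets of photosystem I, psaA, psaB, psaC, psaI and psaJ, were constant between 5.69 and 7.01. In the mitochondrial part the single varying set with a symbol of its own was nad4. To judge signal over background, 27 bacterial control sets were used, and the highest of their means was 6.05. Of the 57 constant chloroplast sets 32 lay above it, among them clpP, a protease subunit, at 8.71, rpl32 at 8.26 and accD, of fatty acid synthesis, at 7.20. The set for psbA, which encodes a core protein of photosystem II, was not above it (5.99).

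Chloroplast genes are read in multi-gene units, and constant and varying sets stood side by side in the same unit. The units used for this description were written from textbook knowledge after the values were seen. In the unit that runs from rpl23 to rpoA, 6 of 9 listed genes varied (rpl23, rpl2, rpl22, rpl16, rpl14 and rpoA) and rps19, rps3 and rpl36 were constant. In the psbD unit psbC and psbZ varied and psbD was constant. In the ndhC unit ndhC and ndhK varied and ndhJ was constant. Both genes of the atpB unit, atpB and atpE, varied. In the psbE unit 1 of 4 varied, psbF, and in the unit from ndhH to ndhD 1 of 7, ndhE. None of the 5 listed genes of the psbB unit, 3 of the psaA unit, 3 of the rpoB unit or 4 of the atpI unit varied.

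The comparison asked how GSH given to the roots alters these transcripts while cadmium is present. All 20 varying chloroplast sets had a higher mean with GSH, by 0.02 to 0.32 on the log2 scale, with a median difference of 0.13. Over all 2428 varying probe sets, 49.3% had a higher mean with GSH, and the median difference was -0.00072. In 8 of the 20 the 3 GSH arrays all lay above the 3 cadmium-only arrays, whereas 8.90% of all varying probe sets did so. In 0 of the 20 did they all lie below, against 9.84% of all varying probe sets. None of the 27 varying members passed limma's test after Benjamini-Hochberg adjustment over all varying probe sets, nor did any of the 2428 (0%). The adjusted p of the 20 ran from 0.219 to 0.796. At an unadjusted p under 0.05 limma gave 7 members, all chloroplast sets and all higher with GSH, against 6.18% of all varying probe sets that were higher and 6.67% that were lower. The 20 sets share their arrays and, in part, their transcripts, so they are not independent replicates of one result. In bulk root tissue, a change in the number of plastids or of plastid-rich cells and a change in transcript per plastid cannot be told apart.

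**Figure D2:**
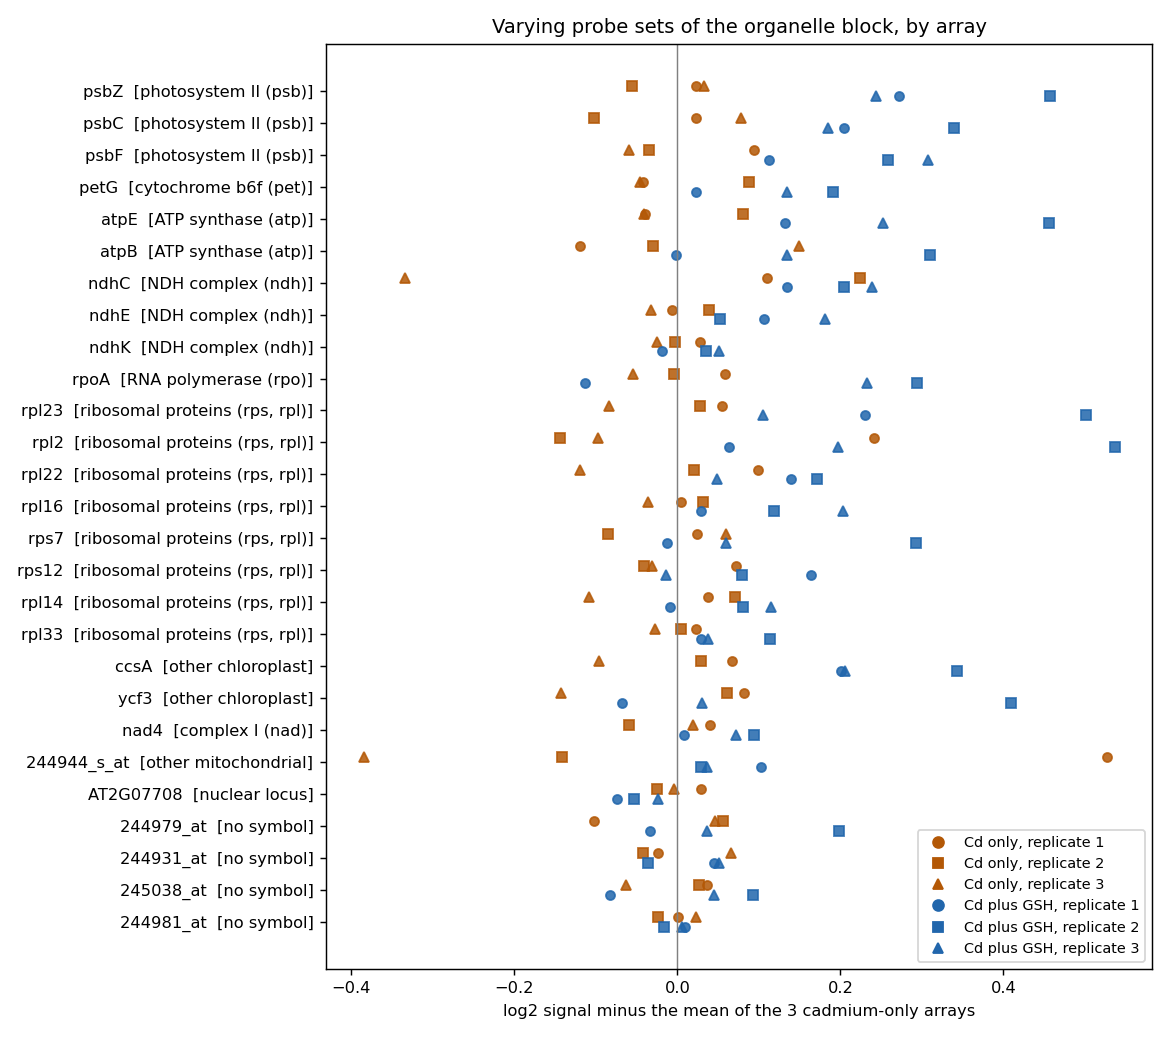
Log2 signal of the 27 varying probe sets on each array, as the distance from the mean of the 3 cadmium-only arrays (orange, cadmium only; blue, cadmium plus GSH; circle, square and triangle, replicates 1, 2 and 3). Blue points lie to the right for psbZ, psbC, psbF, atpE, ndhE, rpl23, rpl33 and ccsA, and overlap orange points for the other sets.

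Photosystem II is the complex that takes electrons from water. Its 3 varying sets were all higher on every GSH array, as were 8.90% of all varying probe sets. Of the 3 sets, psbZ and psbC are listed in the same unit. For psbZ, a small subunit at the edge of the complex, the log2 signal was 7.43, 7.35 and 7.44 on the cadmium-only arrays and 7.68, 7.86 and 7.65 on the GSH arrays. The lowest GSH array thus stood above the highest cadmium-only array. The means were 7.40 ± 0.05 (SD, n = 3) and 7.73 ± 0.12 (SD, n = 3), a log2 difference of 0.32 or 1.25-fold. Its limma 95% interval spanned 0.16 to 0.49, and its limma adjusted p of 0.219 was the smallest among the members. For psbC, which encodes the CP43 antenna protein, the values were 6.97, 6.85 and 7.03 with cadmium only and 7.16, 7.29 and 7.14 with GSH. The groups did not overlap, and the difference was 0.24 (SE 0.06, limma adjusted p 0.251). For psbF, a subunit of cytochrome b559, they were 6.17, 6.05 and 6.02 with cadmium only and 6.19, 6.34 and 6.39 with GSH. The highest cadmium-only array and the lowest GSH array lay close together, and 2 cadmium-only arrays were not above the bacterial control sets. Its difference was 0.23 (SE 0.07, limma adjusted p 0.296). The other 12 photosystem II sets were constant, between 5.46 and 6.34, and 4 of them lay above 6.05.

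The chloroplast ATP synthase makes ATP from the proton gradient over the thylakoid membrane. Its epsilon subunit gene, atpE, had values of 8.70, 8.82 and 8.70 with cadmium only and of 8.87, 9.19 and 8.99 with GSH. All GSH arrays were the higher ones, replicate 2 most of all, and the difference was 0.28 (SE 0.09, limma adjusted p 0.315). After quantile normalisation the difference was 0.22, and its unadjusted limma p was 0.0623, against 0.0245 before. Its beta subunit gene, atpB, is read in the same unit and had values of 8.81, 8.90 and 9.08 with cadmium only and of 8.93, 9.24 and 9.07 with GSH. Here the groups overlapped, since cadmium-only replicate 3 was above 2 GSH arrays, and the difference of 0.15, which was 0.066 without GSH replicate 2, had a limma 95% interval spanning -0.12 to 0.41. The sets for atpA, atpF, atpH and atpI, from another unit, were constant between 5.64 and 6.36.

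The cytochrome b6f complex passes electrons between the photosystems. Its small subunit gene petG had values of 6.25, 6.38 and 6.25 with cadmium only and of 6.32, 6.48 and 6.43 with GSH. The groups overlapped through cadmium-only replicate 2, and the difference was 0.12 (SE 0.06, limma adjusted p 0.486). The other 5 sets, among them petA at 7.16, petB at 6.10 and petD at 6.04, were constant.

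The chloroplast NDH complex, related to mitochondrial complex I, carries electrons back to the plastoquinone pool. For ndhC the signal was 7.32, 7.44 and 6.88 with cadmium only and 7.35, 7.42 and 7.45 with GSH. Cadmium-only replicate 3 stood low and the other 5 arrays lay together, so the difference of 0.19 (SE 0.15) became 0.025 without that array. For ndhK the signal was 6.70, 6.67 and 6.65 with cadmium only and 6.66, 6.71 and 6.73 with GSH, and the groups overlapped. Its difference was 0.02 (SE 0.03). For ndhE the signal was 5.74, 5.79 and 5.72 with cadmium only and 5.85, 5.80 and 5.93 with GSH, which did not overlap. All 6 values of ndhE were below the highest bacterial control set (6.05), so no fold is given for it. The other 8 NDH sets were constant, with ndhH at 7.39 and ndhJ at 7.06 the highest.

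The genes of the chloroplast's own expression machinery made up the largest varying group. Chloroplast ribosomal proteins had 8 varying sets, all with a higher mean with GSH, with a median difference of 0.12 and a range from 0.06 to 0.28. For rpl23, a protein of the large subunit, the signal was 7.05, 7.03 and 6.92 with cadmium only and 7.23, 7.50 and 7.10 with GSH. The groups did not overlap, although GSH replicate 3 lay just above the highest cadmium-only array, and the difference was 0.28 (SE 0.11, limma adjusted p 0.388) and 0.17 without GSH replicate 2. For rpl33 the signal was 7.00, 6.98 and 6.95 with cadmium only and 7.00, 7.09 and 7.01 with GSH. Its groups stood apart by less than 0.01, and its difference of 0.06, which was 0.034 without GSH replicate 2, had an unadjusted limma p of 0.0964.

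In the other 6 ribosomal sets the groups overlapped. For rpl2, next to rpl23 in the genome, the signal was 8.61, 8.22 and 8.27 with cadmium only and 8.43, 8.91 and 8.57 with GSH. Cadmium-only replicate 1 reached the level of the GSH arrays, and the difference of 0.27, which was 0.13 without GSH replicate 2, had a limma 95% interval spanning -0.14 to 0.67. For rpl16 the values were 6.36, 6.38 and 6.32 with cadmium only and 6.38, 6.47 and 6.56 with GSH, a difference of 0.12 (SE 0.05, limma adjusted p 0.416). For rpl22 they were 6.77, 6.69 and 6.55 with cadmium only and 6.81, 6.84 and 6.72 with GSH, a difference of 0.12 (SE 0.07) that was 0.060 without cadmium-only replicate 3. In both genes the overlap came from 1 array of each group. For rpl14 the values were 6.78, 6.82 and 6.64 with cadmium only and 6.74, 6.82 and 6.86 with GSH, a difference of 0.06 (SE 0.06) that was 0.0079 without cadmium-only replicate 3. For rps7, a protein of the small subunit, they were 9.40, 9.29 and 9.44 with cadmium only and 9.36, 9.67 and 9.44 with GSH, a difference of 0.11 (SE 0.09). In rps7 only GSH replicate 2 stood above the cadmium-only arrays, and the difference was 0.023 without it and 0.00092 after quantile normalisation.

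The gene rps12, whose product sits in the decoding centre of the small subunit, was read by a pair of probe sets that disagreed in kind. One was constant at 6.16. The other varied and had values of 8.54, 8.43 and 8.44 with cadmium only and of 8.64, 8.55 and 8.46 with GSH, a difference of 0.08 (SE 0.06) that was 0.038 after quantile normalisation. The 12 constant ribosomal sets lay between 5.44 and 8.26, and 9 of them were above 6.05.

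The alpha subunit gene of the plastid-encoded RNA polymerase, rpoA, had values of 7.47, 7.41 and 7.36 with cadmium only and of 7.30, 7.70 and 7.64 with GSH. GSH replicate 1 was the lowest of the 6 arrays and the other 2 GSH arrays were the highest, so the groups overlapped, with a difference of 0.14 (SE 0.11) that was 0.26 without GSH replicate 1 and 0.060 without GSH replicate 2. The sets for the other subunits, rpoB, rpoC1 and rpoC2, were constant at 5.94, 6.00 and 6.40.

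Among the other chloroplast genes, ccsA and ycf3 act in assembly. The first, needed to attach haem to chloroplast c-type cytochromes, had values of 6.82, 6.79 and 6.66 with cadmium only and of 6.96, 7.10 and 6.96 with GSH. The groups did not overlap, the means were 6.76 ± 0.09 (SD, n = 3) and 7.01 ± 0.08 (SD, n = 3), and the difference of 0.25 had a limma 95% interval spanning 0.10 to 0.40 (adjusted p 0.228). The second, for photosystem I assembly, had values of 7.72, 7.70 and 7.49 with cadmium only and of 7.57, 8.04 and 7.67 with GSH. Only GSH replicate 2 stood above the cadmium-only arrays, and the difference of 0.12 (SE 0.14) turned to -0.019 without it.

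**Figure D3:**
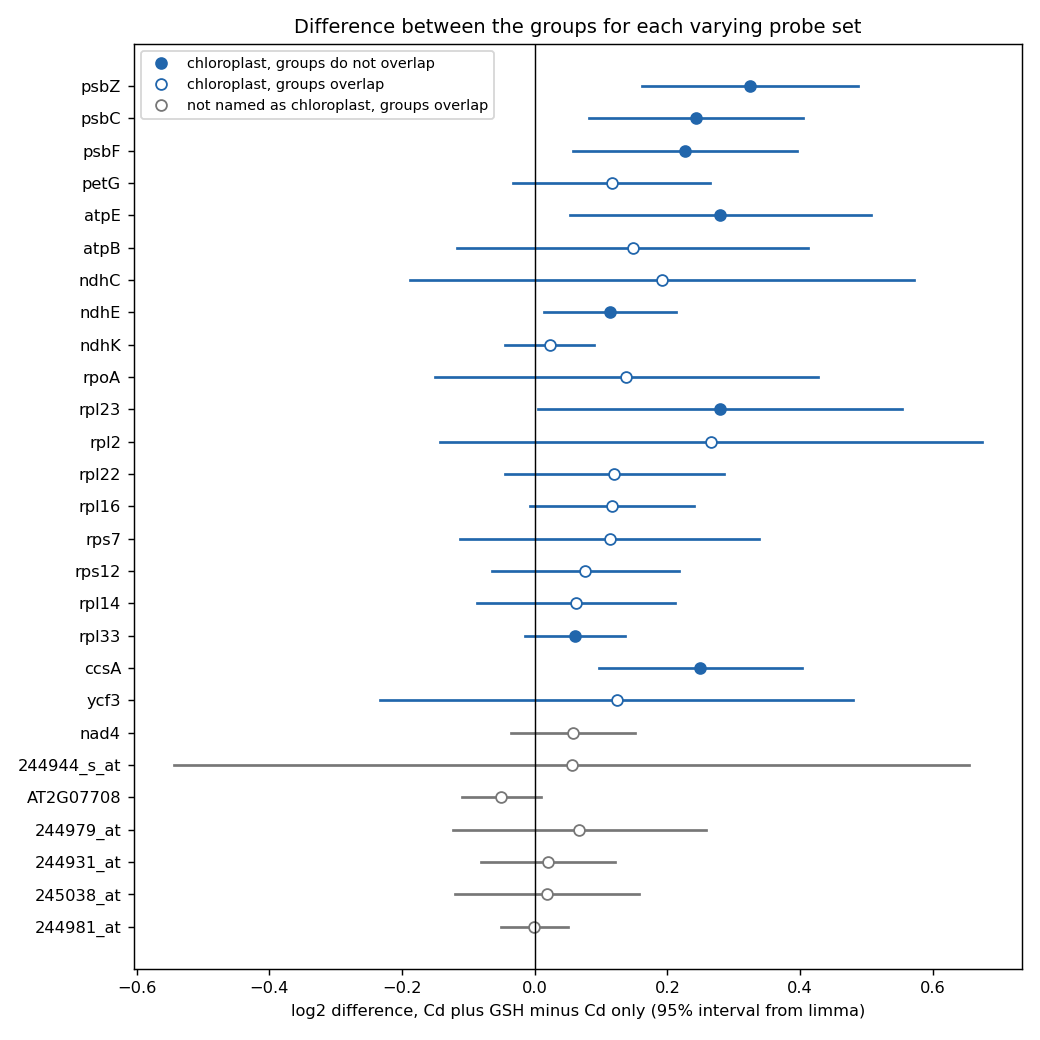
Log2 difference, cadmium plus GSH minus cadmium only, with its limma 95% interval for each of the 27 varying probe sets (blue, chloroplast symbol; grey, other; filled where the 3 GSH arrays all lie above the 3 cadmium-only arrays). All 20 blue points lie above 0, with intervals clear of 0 for 7 of them. These are the 7 sets with an unadjusted limma p under 0.05.

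In 12 of the 20 chloroplast sets the difference was larger than the SD of either group, as it was, in this direction, in 15.8% of all varying probe sets. Over both directions that share was 32.0%. In 7 of the 20 the limma 95% interval lay above 0. These are the same 7 sets that had an unadjusted limma p under 0.05, not a further result. Of all varying probe sets 6.18% were higher by that rule. The spread between replicates was larger with GSH in 15 of the 20 sets, with a median SD of 0.088 against 0.076 with cadmium only. Over all varying probe sets the cadmium-only SD was the larger one in 59.8%. With 3 arrays in each group, the smallest p that exact permutation of 1 gene's values can reach is 0.1.

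The 20 sets did not move evenly over the arrays. As a mean distance from each set's own 6-array mean, they stood at -0.04, -0.07 and -0.13 on cadmium-only replicates 1, 2 and 3 and at -0.0009, 0.18 and 0.07 on GSH replicates 1, 2 and 3. GSH replicate 1 thus lay nearer to the cadmium-only arrays than the other 2 GSH arrays did. GSH replicate 2 was the highest array for 13 of the 20 sets, against 15.8% of all varying probe sets, and cadmium-only replicate 3 was the lowest for 13 of the 20, against 21.6%. No set had its highest value on a cadmium-only array. Of all varying probe sets 20.6%, 15.0% and 19.0% had it on cadmium-only replicates 1, 2 and 3. The median difference of 0.13 was 0.22 without GSH replicate 1. With 1 array left out the differences of 13 of the 20 sets moved by over 1.5 times at least once. The other 7 were psbZ, psbC, psbF, atpE, ndhE, petG and ccsA. The count of 7 members that were higher at an unadjusted p under 0.05 was 3 without cadmium-only replicate 3, where 5.68% of all varying probe sets met the same rule. It was 4 without GSH replicate 3, against 5.27%, and 5 without GSH replicate 2, against 4.37%. With GSH replicate 2 left out, 19 of the 20 sets had a higher mean with GSH, the exception being ycf3.

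Control transcripts on the same arrays moved as well. The 11 varying sets for spiked-in bacterial and phage controls stood, as the same mean distance, at -0.16, -0.11 and -0.01 on the cadmium-only arrays and at -0.10, 0.26 and 0.13 on the GSH arrays. Their mean was 0.19 higher with GSH, with overlapping groups, and within the GSH group they had the same order of arrays as the chloroplast sets, while cadmium-only replicate 3 was the highest of its group in these controls and the lowest in the chloroplast sets. A 3'-end actin control set stood 0.22 higher with GSH and one for the middle of ubiquitin -0.23, both without overlap between the groups. The other 7 of the 9 varying sets for actin, ubiquitin and GAPDH overlapped between the groups, with differences from -0.19 to 0.02. The mean over all 2428 varying probe sets differed by -0.01. The part of these array-wide values in the chloroplast result was not tested.

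**Figure D4:**
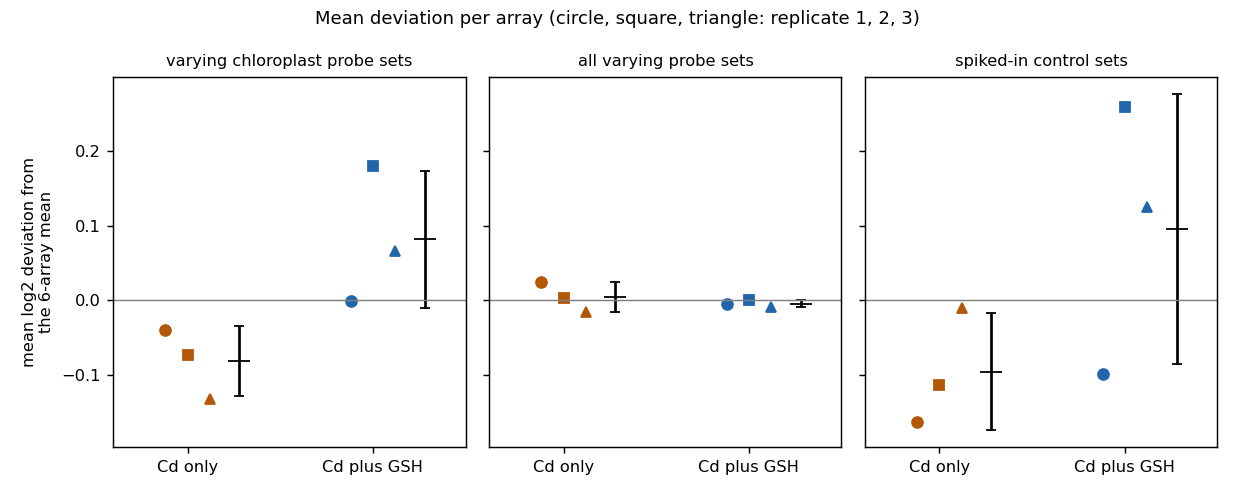
Mean log2 distance from the 6-array mean on each array, for the 20 varying chloroplast sets, all 2428 varying sets and the 11 varying spiked-in control sets; black bars give the group mean ± SD (n = 3 arrays). GSH replicate 2 is the highest array for the chloroplast sets (0.18) and for the spiked-in controls (0.26), while all varying sets stay near 0.

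The mitochondrial sets gave no such pattern to describe, since 11 of the 13 were constant. The gene nad4, a membrane subunit of respiratory complex I, had values of 7.28, 7.18 and 7.26 with cadmium only and of 7.25, 7.34 and 7.32 with GSH. The groups overlapped, and the difference of 0.06 had a limma 95% interval spanning -0.04 to 0.15 (adjusted p 0.592). The set 244944_s_at ranged most widely of all members, by 0.91, with values of 7.48, 6.81 and 6.57 with cadmium only and of 7.06, 6.98 and 6.99 with GSH. Its spread lay within the cadmium-only group, where the SD was 0.47 against 0.04 with GSH, and its difference was 0.06 (SE 0.24).

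The constant mitochondrial sets included nad4L, nad6, nad7 and nad9 of complex I, none of them above the bacterial control sets, and cox2, a core subunit of cytochrome oxidase, at 6.19. The 4 sets for cytochrome c maturation were constant as well, with ccb382 at 8.31, ccb203 at 6.23, ccb452 at 6.19 and ccb206 at 6.06. The sets for matR, a maturase that helps to splice mitochondrial introns, and orfX were constant at 5.78 and 6.44. No member carried a cob symbol.

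Among the 15 sets with nuclear symbols AT2G07708 alone varied, with values of 6.18, 6.13 and 6.15 with cadmium only and of 6.08, 6.10 and 6.13 with GSH. The groups overlapped slightly, and the difference was -0.05 (SE 0.02, limma adjusted p 0.466), in the direction opposite to the chloroplast sets. Of the 45 sets without a symbol 4 varied, none with separate groups. The set 244979_at had values of 8.45, 8.60 and 8.59 with cadmium only and of 8.52, 8.75 and 8.59 with GSH, a difference of 0.07 (SE 0.08). The differences of 244931_at, 245038_at and 244981_at were 0.02, 0.02 and -0.00033, each smaller than its SE. The set 244931_at was not above the bacterial control sets in either group.

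Organelle complexes are completed by subunits from nuclear genes, which were looked up by symbol or locus. Of 30 listed genes for nuclear subunits and assembly factors of the respiratory chain 12 were matched, by 13 probe sets, of which 3 varied and none passed the adjusted test. COX6A, a cytochrome oxidase subunit, was 0.03 higher with GSH (SE 0.02) with non-overlapping groups, CYTC-2, a cytochrome c, differed by -0.06 (SE 0.16), and SDH2-1, the iron-sulfur subunit of succinate dehydrogenase, by 0.0097 (SE 0.06). A second set for SDH2-1 was constant at 5.84. Of 13 genes for alternative respiration 5 were matched, all type II NAD(P)H dehydrogenases (NDB1, NDB2, NDB3, NDB4 and NDC1), and all were constant. Of 9 genes for organelle transcription 1 was matched, the phage-type polymerase RPOTMP, and it was constant at 6.12.

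Nuclear genes of photosynthesis, which also mark green tissue, were matched for 7 of 40 (RCA, PSAE-1, PSAN, PSBW, PSBY, ATPC1 and LHCB4.1). All 7 were constant, between 5.94 and 6.15, and 3 of them lay above 6.05, so they carry no value on whether green tissue or plastid content differed between the groups. Of 9 root markers 1 was matched, PYK10, a beta-glucosidase abundant in roots, and it was constant at 7.06.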

How the data were processed

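Biotin-labelled cRNA from total root RNA was hybridised to 1 array per sample, per the labels' protocols. The values the authors deposited, 1 per probe set and array, are on a log2 scale, as judged from their range. The authors' background correction, normalisation and probe-set summary are not given in the sources used here. The submitters' processing notes name R 2.7.2. The values were used without further normalisation. No source used here gives a scan date or slide, so batches were not tested. Columns carry the samples' own names.

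Array medians over all probe sets were 6.00 each, which says little about the arrays because most probe sets were constant. Medians over the varying probe sets were 6.29, 6.27 and 6.27 with cadmium only and 6.26, 6.26 and 6.27 with GSH. Across the varying probe sets, correlations between arrays ran from 0.951 to 0.990 within groups and from 0.910 to 0.974 between them. The number of arrays limits the precision.

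Differences were estimated by lmFit and eBayes of limma 3.58.1 (R 4.3.3) on the 2428 probe sets other than the 64 controls that ranged over 0.01, with Benjamini-Hochberg adjustment over these and a threshold of 0.05. The limit on the range was used because constant probe sets make the prior variance collapse. The fit was tested on simulated data with independent noise and added differences larger than any found for the members. That test does not cover differences of the members' size. Every varying member with 1 gene symbol was named, as were all varying members without one. The members, limit, lists and tests were chosen with earlier results of these data known. Symbols came from the platform annotation; the sequences of the probes were not used here.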

Additional observations from a re-analysis of the deposited data

How the results depend on the processing

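No member had an adjusted p under 0.05 under quantile normalisation, median centring, other limits on the range, no filter, removal of dim probe sets, robust eBayes with an intensity trend, the replicate block, or with any 1 array left out; the lowest adjusted p over these was 0.110, for psbZ at a range over 0.1. Over all probe sets fitted, limma called 2 under quantile normalisation, 5 at a range over 0.1, 42 with no filter, 2 without dim sets, 13 without cadmium-only replicate 3 and 0 under the others. In the unadjusted count of 7 members higher with GSH and 0 lower, testing all probe sets gave 16 and 1, because rounding differences of constant sets enter; 3.06% of all 22746 sets were higher there by the same rule, and ndhE and rpl23 of the 7 were lost. Leaving out probe sets under the median signal gave 4, against 8.73%, with fewer sets tested. Leaving out 1 array gave 3 to 8 members higher, against 4.24% to 7.13% of all varying sets (8 against 4.24% without GSH replicate 1). It gave 8 to 13 chloroplast sets without overlap, against 12.7% to 15.7% of all varying sets; this count cannot fall when an array is removed, so it says nothing about stability. The median chloroplast difference was then 0.11 to 0.22. Of 371 single values under the alternatives, 11 changed sign, none past the threshold. These were 244981_at with 0.0096 under quantile normalisation, 0.012 under median centring and -0.012 to 0.011 with 1 array left out, 244931_at with -0.00081 to 0.053, 244944_s_at with -0.14 to 0.32, 245038_at with -0.019 to 0.069 and ycf3 with -0.019 to 0.22. The cause was not tested. Deviations from the group means had r of -0.11, -0.21 and 0.13 across varying probe sets between arrays of replicate number 1, 2 and 3. With 3 arrays per group these deviations depend on each other, so they cannot decide whether the numbers pair the samples. With the replicate block 7 members were higher at an unadjusted limma p under 0.05, against 6.67% of all varying probe sets. Of these members 5 were shared with the 7 of the fit without the block (ndhE and psbF were lost). The median chloroplast difference with the block was 0.13, and 0 members passed after adjustment. Precision is limited by 3 arrays per group, and for psbF and ndhE by signal near or below the control sets.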
